A study of Mus musculus with 4 samples.

Results

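The nuclear genes of oxidative phosphorylation were followed in mouse bone marrow-derived macrophages. They were taken by name: genes whose symbol begins with Nduf (complex I), Uqcr (complex III), Cox4 to Cox8 (complex IV) or Atp5 (complex V), that have at least 1 protein-coding transcript and whose symbol carries no pseudogene suffix. The rule used no measured value and found 90 genes with 89 symbols among 55536, since Atp5o is listed under 2 identifiers. Complex I held 46 of them, complex III 8, complex IV 18 and complex V 18. The name decides the complex here. So Ndufa4, known as a complex IV subunit, counts under complex I, Atp5s is listed as Dmac2l in RefSeq and is no subunit of the ATP synthase ring or head, and complex II and cytochrome c1 lie outside the rule.

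The study sequenced polyadenylated RNA of primary macrophages from C57BL/6J mice, cultured from bone marrow and stimulated for 60 min at 100 ng/mL. The labels name the agent lipid A in one field and lipoprotein A in another. There was 1 group of 4 libraries, biological replicates 1 to 4, which carry the same donor label; age and sex were not collected, and no unstimulated cells were analysed here. The values therefore describe the stimulated state and hold no response to the stimulus. The p-values below measure only the spread between these 4 samples beyond counting error, which may be technical. All 8 macrophage markers examined, among them Csf1r, Adgre1 and Lyz2, were at 1 TPM or more in every library. Levels are in TPM, a read count corrected for transcript length and library size.

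Gene counts summed to between 26917324 (replicate 1) and 39438414 (replicate 4) per library. Ribosomal RNA took 12.4% of the counts of replicate 1, and from 3.43% to 7.28% elsewhere. Markers of neutrophils and their precursors summed to 706 TPM in replicate 3 and to between 67.7 and 194 TPM in the others, mostly S100a8 and S100a9, while Ly6g, which defines mature neutrophils, was at 0 except for 0.12 TPM in replicate 3. Markers of B cells, T and NK cells, erythroid cells and striated muscle each summed to under 2 TPM in every library, stromal and endothelial markers summed to between 0.90 and 2.16 TPM, and the 3 testis markers had no count. In bulk RNA, fewer cells of a type and less RNA per cell cannot be told apart.

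Oxidative phosphorylation couples electron transport across the inner mitochondrial membrane to ATP synthesis. Complex I takes electrons from NADH, complex III passes them from ubiquinol to cytochrome c, complex IV hands them to oxygen, and the proton gradient so built turns the rotor of complex V, the ATP synthase. Most subunits are encoded in the nucleus and a few in mitochondrial DNA. Macrophages stimulated through Toll-like receptor 4 are known to lean towards glycolysis, with complex I a known source of reactive oxygen species in that state.

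Known regulators of these genes include the nuclear respiratory factors NRF1 and NRF2 (the latter an ETS-family factor that contains Gabpa) and YY1, so the promoters were searched for short words of their binding motifs. RefSeq (GRCm38.p6) gave a promoter of 300 bases, 250 before to 50 after the gene's start, for 74 members, which are 73 RefSeq genes with 78 promoters. On either strand, the NRF1 word GCGCATGCG stood in 13.7% of the member genes against 2.61% of 17491 protein-coding genes. Its shorter form GCGCATG, which every match to the long word also contains, stood in 19.2% against 5.39%. The ETS word CCGGAAG was found in 21.9% against 12.9%, and the YY1 word AAGATGGC in 15.1% against 3.57%. At least 1 of the 3 words was present in 45.2% of member genes and in 19.8% of protein-coding genes. The median GC content of these promoters was 57.5% in members and 56.3% in protein-coding genes. A match is a description of letters and not a mapped site.

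The 10 genes with the long NRF1 word were Uqcrc1 and Uqcr11 of complex III, Cox6a1 of complex IV, Atp5g2, Atp5k and Atp5l of complex V, and Ndufa8, Ndufa11, Ndufaf4 and Ndufaf5 of complex I. Of the 11 genes with the YY1 word, 8 belonged to complex I (Ndufa3, Ndufa9, Ndufaf8, Ndufb8, Ndufc1, Ndufs4, Ndufs6 and Ndufs7) and 3 to complex V (Atp5f1, Atp5j and Atp5j2). None of the 4 tissue-restricted forms with a promoter entry (Cox6b2, Cox7a1, Cox7b2 and Cox8b) held any of the words.

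The promoters below are those of a gene for each word, of 2 pairs of paralogs in which one form was abundant and the other low or at 0, and of Cox7a2l, which differed most between libraries. They read 5′ to 3′ on the gene's strand, and capitals mark matches to the words above. Cox6a1 (chr5:115348909-115349208, minus strand) holds the NRF1 word, which reads the same way on both strands there, and the ETS word on the opposite strand. Atp5g2 (chr15:102670998-102671297, minus) also holds the NRF1 word on both strands, and Atp5j2 (chr5:145191492-145191791, minus) the YY1 word after the start. Cox8a (chr19:7217567-7217866, minus) holds the ETS word at 2 places, both on the opposite strand, and its paralog Cox8b (chr7:140900397-140900696, minus) none. No word was found for Cox7a1 (chr7:30183921-30184220, plus), Cox7a2 (chr9:79759804-79760103, minus) or Cox7a2l (chr17:83514284-83514583, minus).
Cox6a1: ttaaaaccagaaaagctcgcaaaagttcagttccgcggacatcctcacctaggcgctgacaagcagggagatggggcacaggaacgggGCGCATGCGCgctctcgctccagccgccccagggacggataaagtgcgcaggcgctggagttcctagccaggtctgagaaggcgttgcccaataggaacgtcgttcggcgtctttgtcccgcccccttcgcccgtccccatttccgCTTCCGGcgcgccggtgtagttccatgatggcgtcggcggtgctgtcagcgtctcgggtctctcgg
Atp5g2: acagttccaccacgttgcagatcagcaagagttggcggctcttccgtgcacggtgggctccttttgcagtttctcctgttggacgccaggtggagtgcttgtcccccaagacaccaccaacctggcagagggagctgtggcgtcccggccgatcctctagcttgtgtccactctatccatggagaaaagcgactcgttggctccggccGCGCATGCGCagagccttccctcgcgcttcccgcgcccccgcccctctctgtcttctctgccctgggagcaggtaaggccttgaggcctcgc
Atp5j2: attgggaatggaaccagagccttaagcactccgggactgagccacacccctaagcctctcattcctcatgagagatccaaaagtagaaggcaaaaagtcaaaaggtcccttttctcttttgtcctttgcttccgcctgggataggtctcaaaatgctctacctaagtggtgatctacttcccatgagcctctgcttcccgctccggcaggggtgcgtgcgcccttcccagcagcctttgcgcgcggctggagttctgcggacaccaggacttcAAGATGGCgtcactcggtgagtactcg
Cox8a: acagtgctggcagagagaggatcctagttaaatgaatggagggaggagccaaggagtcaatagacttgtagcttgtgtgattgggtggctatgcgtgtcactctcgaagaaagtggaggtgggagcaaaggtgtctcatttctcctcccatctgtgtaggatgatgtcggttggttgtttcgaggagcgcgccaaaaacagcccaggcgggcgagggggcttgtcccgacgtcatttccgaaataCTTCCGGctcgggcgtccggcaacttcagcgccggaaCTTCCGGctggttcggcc
Cox8b: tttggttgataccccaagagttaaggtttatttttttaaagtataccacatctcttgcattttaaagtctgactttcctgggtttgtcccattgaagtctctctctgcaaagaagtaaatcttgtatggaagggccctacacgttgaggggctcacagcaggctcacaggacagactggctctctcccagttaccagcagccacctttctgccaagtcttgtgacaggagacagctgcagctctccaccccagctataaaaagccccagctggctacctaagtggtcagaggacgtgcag
Cox7a1: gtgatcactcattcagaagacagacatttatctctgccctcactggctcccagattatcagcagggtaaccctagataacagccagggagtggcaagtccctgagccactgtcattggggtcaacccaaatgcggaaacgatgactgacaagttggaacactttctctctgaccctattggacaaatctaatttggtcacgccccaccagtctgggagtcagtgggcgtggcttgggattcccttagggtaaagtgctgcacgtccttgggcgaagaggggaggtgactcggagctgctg
Cox7a2: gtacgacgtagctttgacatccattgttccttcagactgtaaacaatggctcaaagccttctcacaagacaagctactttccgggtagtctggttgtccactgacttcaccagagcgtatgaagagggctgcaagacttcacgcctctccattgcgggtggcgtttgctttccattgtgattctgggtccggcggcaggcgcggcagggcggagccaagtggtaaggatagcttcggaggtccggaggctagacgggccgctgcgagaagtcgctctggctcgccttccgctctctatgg
Cox7a2l: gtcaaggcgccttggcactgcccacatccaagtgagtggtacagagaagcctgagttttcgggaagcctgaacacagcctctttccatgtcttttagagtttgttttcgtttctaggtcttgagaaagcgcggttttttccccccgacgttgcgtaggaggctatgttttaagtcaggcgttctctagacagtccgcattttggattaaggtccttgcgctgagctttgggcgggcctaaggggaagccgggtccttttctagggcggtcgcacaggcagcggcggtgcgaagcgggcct

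The genes of complexes IV and V were the most abundant, those of complex I lower, the assembly factors lower still, and the tissue-restricted forms lowest (median 0.051 TPM). The median over the 10 common complex IV subunits was 279 TPM and over the 16 complex V subunits with counts 227 TPM. It was 154 TPM for the 8 genes of complex III and 73.5 TPM for the 37 complex I subunits, Ndufa4 included by its name. In each library, the complex IV median was between 3.35 and 4.05 times that of the complex I subunits, and the complex V median between 2.73 and 2.87 times. Ndufaf1 to Ndufaf8, the assembly factors that build complex I without staying in it, had a median of 9.03 TPM, and in each library the complex I subunits were between 9.10 and 9.98 times as abundant. Of the 90 members, 82 were at 1 TPM or more in every library, 7 were below 1 TPM in every library, and 5 of these had no count. Over all members the median was 92.0 TPM, against 17.8 TPM for the 9641 protein-coding genes at 1 TPM or more in every library. The members together held between 1.16% and 1.32% of all TPM. Genes of 1 complex share libraries, so these orders are descriptions of the 4 libraries.

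**Figure D1:**
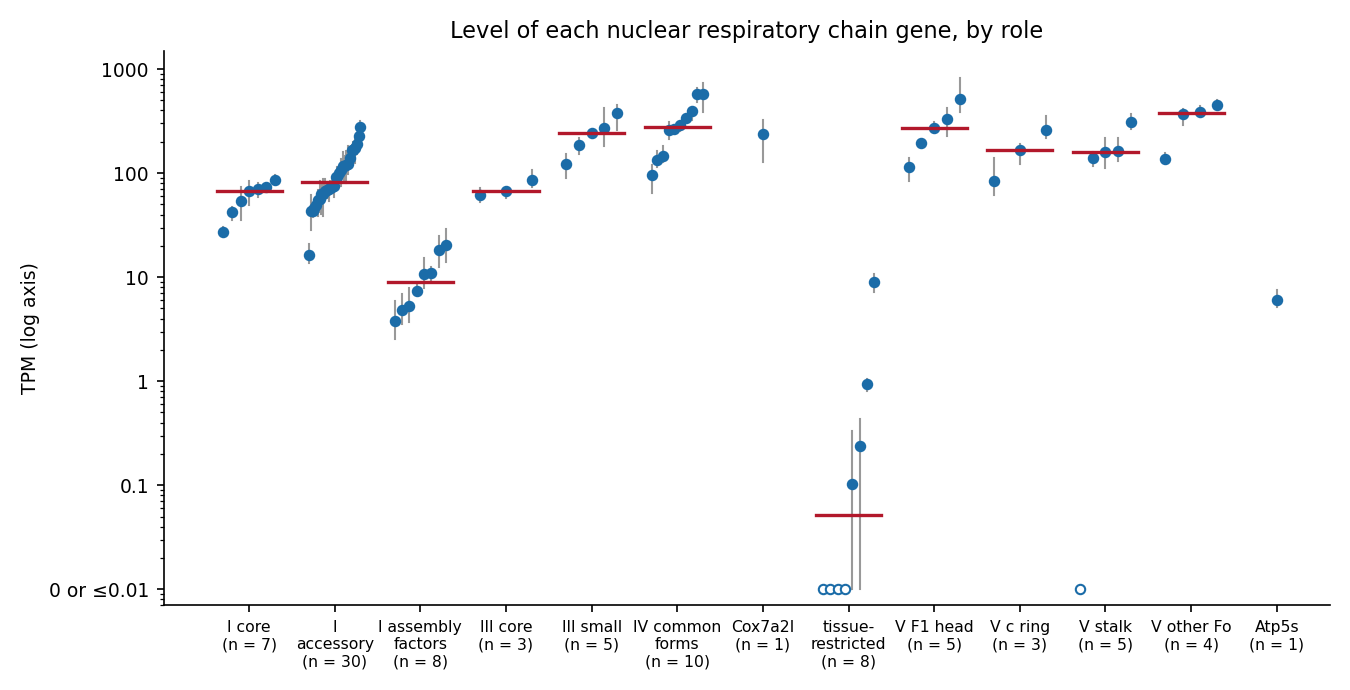
Level of each of the 90 members, grouped by role, on a log axis of TPM. Points are means over 4 libraries, grey lines run from the lowest to the highest library, red bars are group medians, and open points at the bottom are genes with no count; the assembly factors (median 9.03 TPM) lie below the complex I subunits and most tissue-restricted forms lie below 1 TPM.

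Within complex I as named, the highest genes were in the accessory group. The 7 nuclear core subunits, which carry the flavin, the iron-sulphur clusters and the quinone site, had a median of 66.74 TPM, with Ndufv1 at 27.2 TPM. The 30 accessory subunits lay between 16.4 and 276 TPM. The highest was Ndufa1, an accessory subunit of the membrane arm, at 243, 271, 317 and 272 TPM in replicates 1 to 4 (276 ± 30.3 TPM, mean ± SD, n = 4). Ndufa4 followed at 263, 228, 224 and 185 TPM (225 ± 31.6), highest in replicate 1 and lowest in replicate 4. It is known as a complex IV subunit and counts here by its name. Ndufb8, a membrane-arm subunit, stood at 234, 154, 185 and 181 TPM (189 ± 33.7). These 3 genes overlapped in their library ranges only in part: the lowest value of Ndufa1, 243 TPM, was above every value of Ndufb8. Lowest among the assembly factors was Ndufaf6, at 5.95, 2.57, 3.66 and 3.03 TPM.

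Complex III divided by role. Its nuclear core subunits Uqcrc1, Uqcrc2 and the Rieske protein Uqcrfs1 were at 86.2 ± 15.1, 61.5 ± 8.20 and 67.6 ± 6.73 TPM (SD, n = 4), and the 5 small subunits had a median of 242 TPM. In each library the median of the small subunits was between 2.88 and 3.69 times that of the core. Uqcrh, the hinge protein at the cytochrome c1 side, was the highest, at 262, 352, 440 and 454 TPM. Replicate 1 was thus the low library for Uqcrh. Uqcr10 was even across libraries, at 263, 231, 219 and 255 TPM.

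Complex IV was led by Cox6b1 and Cox4i1, which could not be separated by TPM over all their transcripts. Cox6b1 was at 489, 391, 712 and 732 TPM (581 ± 168, SD, n = 4) and Cox4i1 at 486, 626, 554 and 655 TPM (581 ± 75.9). They ranked 218 and 219 among protein-coding genes by mean TPM. The coding transcripts of Cox6b1 alone were at 303, 256, 346 and 308 TPM, below Cox4i1 (99.3% coding) in every library. In the second quantification Cox4i1 was higher on average (443 against 361 TPM), though not in replicate 3 (454 against 460 TPM). Cox4i1 contacts the mitochondrially encoded core of the enzyme, and Cox6b1 faces the intermembrane space where cytochrome c binds. Cox6b1 was higher in replicates 3 and 4 than in replicates 1 and 2. Cox7c, a small membrane subunit, followed at 428, 326, 416 and 398 TPM.

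Several complex IV subunits have a ubiquitous form and a form known from muscle, testis, lung or hypoxic cells, and in each of these sets other than Cox7a the ubiquitous form supplied nearly all of the TPM. In the first quantification Cox4i2, the form of lung and of hypoxic cells, had no count in any library. Nor had Cox7b2 and Cox8c, known from testis, or Cox8b, known from muscle. The second quantification listed Cox4i2 at 0.26, 0.11, 0.067 and 0.48 TPM, and Cox7b2 at 0.089 TPM in replicate 2 alone. In the shallowest library a count of 0 allows up to 3 counts, or a CPM (count scaled to library size) of 0.109, for counting error only. Cox6a2, the heart and muscle form, was at 0.81, 0.96, 0.98 and 1.04 TPM, or 0.355% of its set with Cox6a1. In the second quantification Cox6a2 was at 1.18, 1.10, 2.00 and 1.69 TPM, above 1 TPM in every library. Cox6b2, a testis form, was at 0, 0.43, 0.36 and 0.17 TPM beside Cox6b1, from at most 2 counts a library. The first of the 2 deposited quantifications assigned all of it to a transcript annotated for nonsense-mediated decay, the second put 41.8% in coding transcripts, and the posterior mean was 2.22 TPM. Ndufa4l2, a paralog of Ndufa4 induced in hypoxia, was at 0.08, 0, 0.33 and 0 TPM.

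In the first quantification Cox7a1, the heart and muscle form of Cox7a, was the exception among the 8 tissue-restricted forms. It was at 7.69, 7.17, 10.3 and 10.7 TPM (8.97 ± 1.80, SD, n = 4), from 20 to 37 counts a library, above 1 TPM in every library. Its liver-type paralog Cox7a2 was at 183, 139, 127 and 139 TPM. In the set of Cox7a1, Cox7a2 and Cox7a2l, Cox7a1 held 2.29% of the TPM (1.53% to 3.10% by library) and Cox7a2 37.5%. Of the 4 striated muscle markers, Ckm and Acta1 did not pass 0.06 TPM in any library, Tnnt3 reached 0.69 TPM and Mylpf was at 0.84, 1.30, 1.22 and 0.70 TPM; their part in the Cox7a1 level was not tested. Cox7a2l, which is known to help assemble complexes III and IV into supercomplexes and is no regular subunit, held 60.2% of the TPM of the set, ranging from 40.0% to 68.8% by library.

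**Figure D2:**
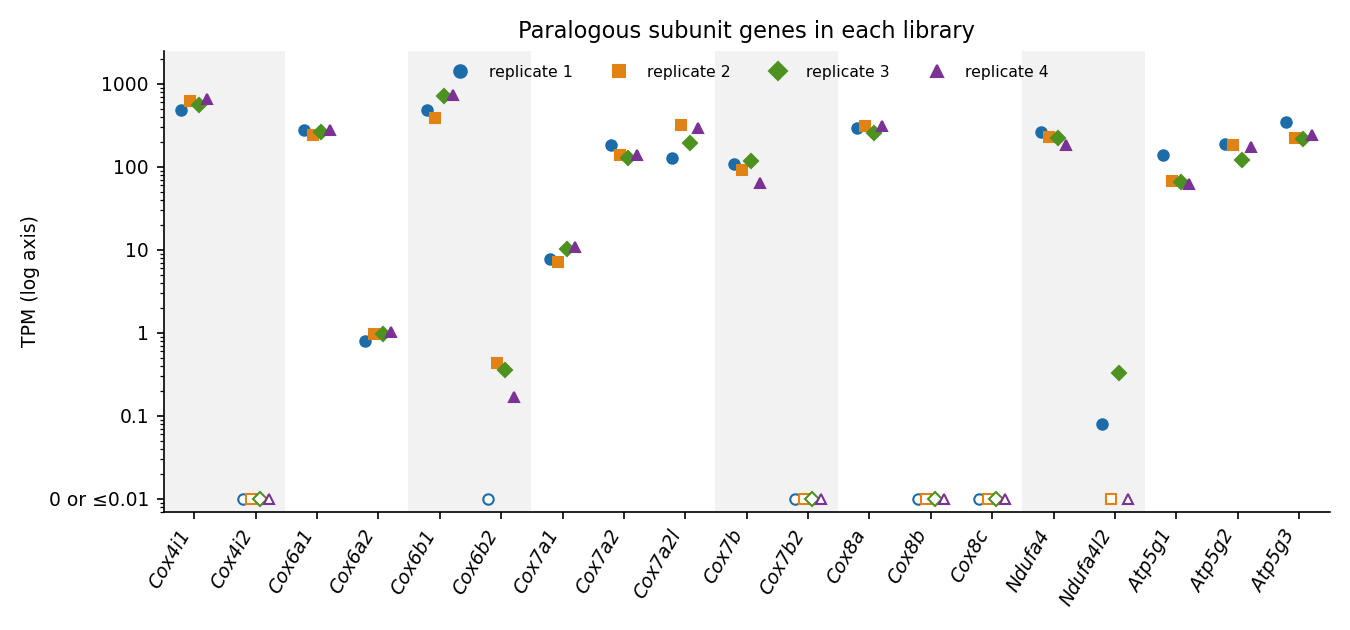
TPM of 19 paralogous genes in each of the 4 libraries, on a log axis, with shaded bands separating the sets and open symbols for values of 0. One form dominates each set except Cox7a, where Cox7a2l (127 to 323 TPM) and Cox7a2 (127 to 183 TPM) overlap and Cox7a1 lies between 7.17 and 10.7 TPM, and the c ring set, where all 3 genes exceed 60 TPM.

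Over all transcripts, the highest means of complex V were those of Atp5b, the catalytic beta subunit of the F1 head, and of 2 small Fo subunits. Atp5b was at 816, 442, 389 and 412 TPM (514 ± 202, SD, n = 4). Replicate 1 stood apart there. Atp5l, the g subunit at the dimer interface, was at 434, 425, 460 and 504 TPM, above Atp5b in replicates 3 and 4 and on average in the second deposited quantification (319 against 298 TPM), and Atp5mpl, a small membrane subunit, at 390, 343, 440 and 382 TPM. The coding transcript of Atp5b alone was at 502, 293, 335 and 330 TPM. That was above Atp5l (98.2% coding) and Atp5mpl (99.9% coding) in replicate 1 only. The peripheral stalk, which holds the head still against the rotor, had 4 genes with counts, from Atp5o at 141 ± 17.6 TPM to Atp5h at 310.5 ± 50.1 TPM. The second identifier of Atp5o, whose gene model reaches into Donson, had no count. Atp5s stood at 5.93, 7.57, 5.71 and 5.12 TPM, far under the subunits.

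The c ring is the proton-driven rotor, and Atp5g1, Atp5g2 and Atp5g3 encode its subunit. Atp5g3 was at 351, 225, 216 and 240 TPM, Atp5g2 at 190, 185, 122 and 171 TPM, and Atp5g1 at 139, 68.4, 66.4 and 61.8 TPM. That order held in each library, with 50.7%, 32.8% and 16.5% of the set's TPM. The 3 genes share no stretch of 31 bases in their coding sequences, which are 78.7% to 84.3% identical where they align. The last 60 coding bases before the stop codon (GENCODE M21 transcripts) show this, with capitals where Atp5g1 or Atp5g3 differ from Atp5g2, at 9 and 17 positions.
Atp5g1: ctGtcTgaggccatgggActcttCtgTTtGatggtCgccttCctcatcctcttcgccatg
Atp5g2: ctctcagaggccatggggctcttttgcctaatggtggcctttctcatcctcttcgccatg
Atp5g3: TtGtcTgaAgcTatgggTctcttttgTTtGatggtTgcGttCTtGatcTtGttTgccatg

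The deposited tables hold 2 quantifications of the same libraries, and Atp5g2 was the member on which they differed. Across the 82 members at a mean of 1 TPM or more, the second gave a median of 0.72 times the TPM of the first (0.778 times in protein-coding genes at 1 TPM or more in every library). Only Atp5g2 differed by more than 2-fold, with 167 TPM in the first and 6.66 TPM in the second. Its processed pseudogene Gm10175 (mm10, chr7:23946646-23947290) went the other way, from 47.9 to 165 TPM. All 645 bases of Gm10175 lie within the 731-base leading transcript of Atp5g2 with no mismatch, and 87.7% of the 31-base words of Atp5g2 occur in Gm10175. The sum of gene and pseudogene was 215 TPM in the first quantification and 171.5 TPM in the second. In the second quantification Atp5g2 held 2.63% of the c ring set and Atp5g3 72.6%. The order within the c ring therefore depends on how reads common to Atp5g2 and Gm10175 were divided, and the level of Atp5g2 alone is uncertain.

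Other members have such copies too. Exactly 6 members share at least 50% of their 31-base words with 1 other gene, 52 share at least 1 word and 38 share none. The following 3 pairs were picked after their values were seen. Ndufb4, the lowest complex I subunit, was at 20.8, 15.7, 13.7 and 15.5 TPM, while its processed pseudogene Ndufb4c (chr15:73809507-73809896) was listed at 198, 142, 226 and 191 TPM. The 390 bases of Ndufb4c are identical to the coding part of Ndufb4 with its stop codon, and both quantifications put Ndufb4c higher (116 against 11.7 TPM in the second). Cox7c met a similar copy in Gm12338 (chr11:75599763-75599954), 192 bases identical to its coding sequence, listed at 292, 267, 758 and 370 TPM in the first quantification and at a mean of 66.4 TPM in the second. For Atp5l, the identical 309-base copy Gm10221 (chr5:24581554-24581862) was at 139, 54.7, 5.46 and 16.1 TPM in the first quantification, high in replicate 1, and at a mean of 7.08 TPM in the second. For these 4 genes, the level assigned to the gene and the sum with the copy are different quantities, and the low place of Ndufb4 among complex I subunits holds for the gene alone.

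**Figure D3:**
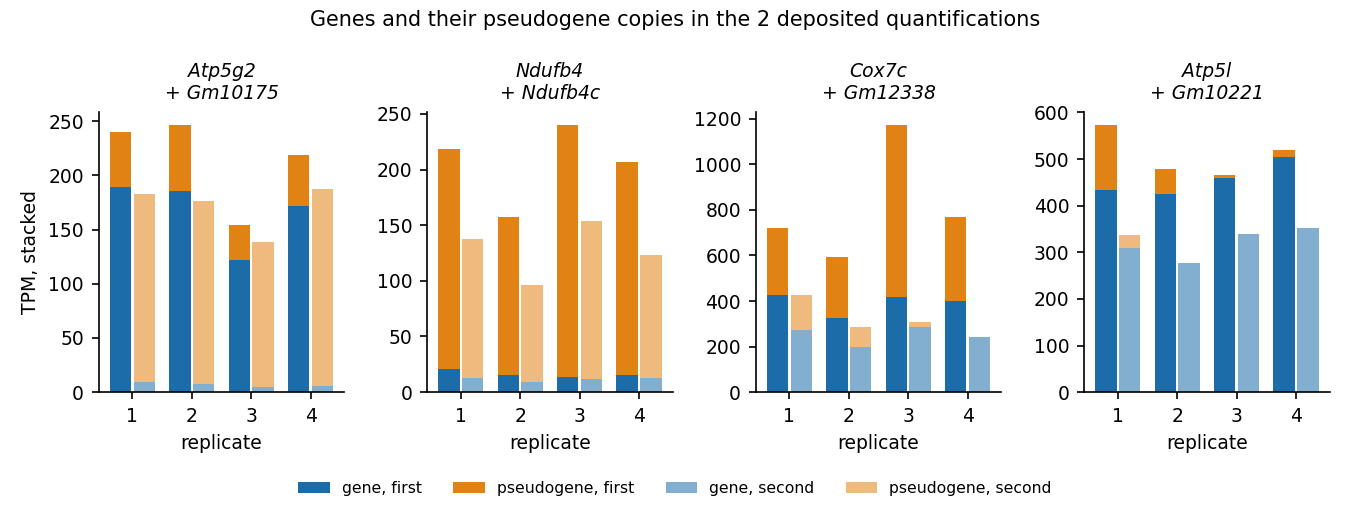
TPM of 4 members (blue) with their pseudogene copies (orange) stacked on top, by library, in the first (dark) and second (pale) deposited quantification, on linear axes from 0. Atp5g2 carries most of its pair's TPM in the first and little in the second quantification (167 against 6.66 TPM on average), and Ndufb4 carries little in both.

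Most members were read as coding transcripts. A median of 99.3% of a member's TPM lay in protein-coding transcripts, and 65 of 82 members had at least 90% there. The exceptions were large in 2 genes. Ndufa5, an accessory subunit of the matrix arm, had 25.3% of its TPM in coding transcripts (20.4% to 30.3% by library). Its noncoding processed transcript ENSMUST00000141274.1 of 453 bases was at 69.3, 38.7, 50.3 and 27.8 TPM, above the leading coding transcript at 16.3, 9.19, 17.5 and 7.87 TPM in every library. Ndufs4, whose loss in humans causes Leigh syndrome, had 36.9% in coding transcripts, with a transcript annotated for nonsense-mediated decay at 25.3, 18.3, 37.1 and 15.8 TPM.

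Near the 50% mark, 2 abundant genes also divided between transcripts. Cox6b1 had 52.3% of its TPM in coding transcripts and 277 TPM in a retained-intron transcript of 369 bases. That transcript was at 185, 134, 366 and 424 TPM, while the leading coding transcript was at 301, 254, 338 and 302 TPM. The second quantification divided the same libraries differently, with the retained-intron transcript at 121, 72.7, 165 and 175 TPM and the coding one at 199, 159, 290 and 249 TPM. Both transcripts of Cox6b1 were higher in replicates 3 and 4 than in 1 and 2 there, and which of them differed more depends on the quantification. Atp5f1, the b subunit of the peripheral stalk, had 51.8% in coding transcripts, and its transcript annotated for decay was at 137 TPM in replicate 3 against 37.6 to 66.9 TPM in the others. Its coding transcript was at 111, 89.5, 75.1 and 64.0 TPM, not high in replicate 3. The same held for Atp5j, the F6 subunit of the stalk, with a retained-intron transcript at 31.1, 26.4, 118 and 26.9 TPM and a leading coding one at 110, 105, 78.1 and 73.2 TPM. Atp5b had 71.0% in its coding transcript, at 502, 293, 335 and 330 TPM, with the rest mainly in processed transcripts of 343 and 478 bases that reached 185 and 120 TPM in replicate 1. In the second quantification the coding share of Atp5b was 92.5%.

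To see which members differed between the 4 libraries, scaled counts were compared with counting noise by a chi-square test (Benjamini-Hochberg adjusted over 12626 genes averaging 10 counts or more). Of 82 members tested, 78 (95.1%) went past counting noise at adjusted p under 0.05, against 88.6% of all genes tested and 97.1% of protein-coding non-members with a mean count between the members' quartiles, 702 and 1782. The share is near the background. Members called variable, past noise and with at least 2-fold between the highest and lowest library, were 6 of 82 (7.32%), against 33.0% of all genes tested and 17.8% of those non-members. The median ratio of highest to lowest library was 1.42 in members and 1.47 in the non-members of like depth. Ndufs3, a core subunit, was the steadiest at 73.7, 75.1, 72.7 and 72.3 TPM, a ratio of 1.08 that did not pass counting noise (adjusted p = 0.242); Atp5s, Cox7a1 and Ndufb7 did not pass either (adjusted p = 0.22, 0.469 and 0.0743).

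The 6 variable members were Cox7a2l, Uqcrb, Ndufa5 and the assembly factors Ndufaf4, Ndufaf6 and Ndufaf8. Cox7a2l was at 127, 323, 195 and 296 TPM, low in replicate 1 and high in replicates 2 and 4. Its scaled counts differed 2.60-fold between replicates 2 and 1, and the leading coding transcript carried the difference, at 124, 317, 191 and 291 TPM. The second quantification gave 86.9, 202, 162 and 235 TPM, a 2.42-fold range with the same low library. Without replicate 1 the range of Cox7a2l was 1.58-fold, under the 2-fold line. Uqcrb, a small complex III subunit near the quinone site, went the other way, high in replicate 3: it was at 259, 220, 420 and 182 TPM (2.34-fold, adjusted p = 7.79e-177 by the chi-square test), 1.41-fold without replicate 3 and 1.92-fold without replicate 4. Uqcrb shares 54.3% of its 31-base words with 4 other genes, none of which was above 2 TPM on average. Neutrophil-lineage markers were also highest in replicate 3, and their part in this was not tested.

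The other 4 were highest in replicate 1 over all their transcripts. Ndufa5 was at 87.2, 52.8, 74.3 and 38.3 TPM (2.21-fold, adjusted p = 3.65e-31 by the chi-square test), high in replicates 1 and 3. The coding transcripts of Ndufa5 alone were at 17.8, 14.1, 22.5 and 9.58 TPM, highest in replicate 3. Ndufaf8 was at 28.9, 21.8, 13.9 and 16.7 TPM (2.29-fold, adjusted p = 1.60e-13), and Ndufaf4 at 7.84, 4.05, 5.28 and 3.73 TPM (2.04-fold, adjusted p = 7.02e-20). Ndufaf6 was at 5.95, 2.57, 3.66 and 3.03 TPM (2.20-fold, adjusted p = 0.0013). Each of these calls rests on 1 or 2 libraries. Ndufaf8, Ndufaf4 and Ndufaf6 spanned 1.53, 1.44 and 1.49-fold without replicate 1. Leaving out replicate 3 gave 1.85-fold for Ndufaf8, and leaving out replicate 2 gave 1.84-fold for Ndufaf4 and 1.72-fold for Ndufaf6. Ndufa5 spanned 1.72-fold without replicate 4. Just below the 2-fold line lay Ndufa12, whose ratio rounds to 2.00, and Ndufs7 at 1.98. Leaving out replicate 1 left 2 variable members, Uqcrb and Ndufa5 (2.44%), where 16.1% of all genes tested were variable. Leaving out each of the others left 4 members (4.88%), with 26.5% to 29.2% of all genes variable.

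**Figure D4:**
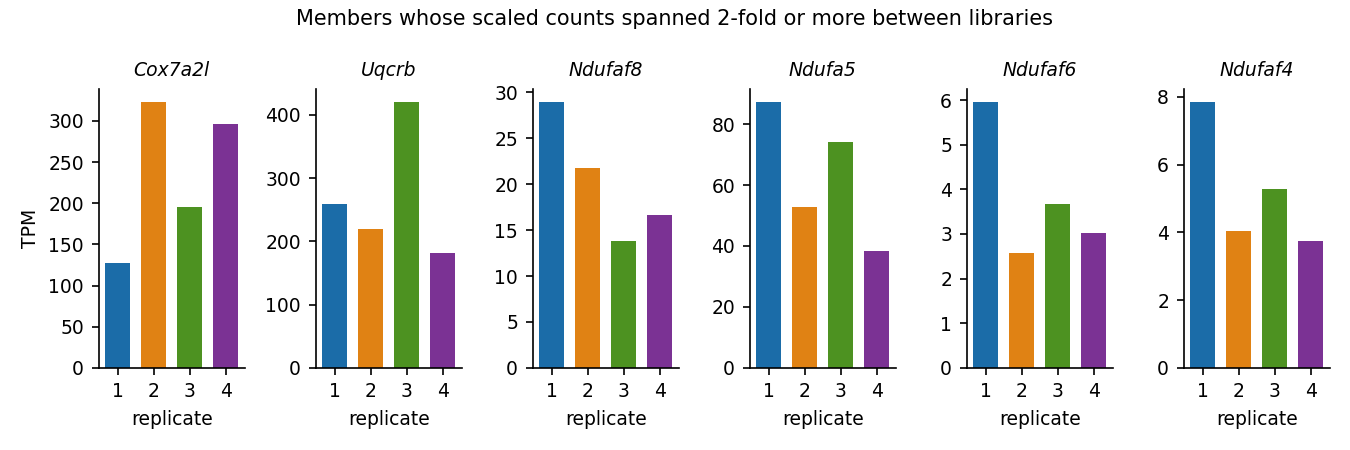
TPM in replicates 1 to 4 of the 6 members past counting noise whose scaled counts differed at least 2-fold between libraries, on linear axes from 0. Cox7a2l is lowest in replicate 1 (127 TPM), Uqcrb is highest in replicate 3 (420 TPM), and the other 4 genes are highest in replicate 1. Values cover coding and noncoding transcripts, and the coding transcripts of Ndufa5 were highest in replicate 3.

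As a group, the members leaned towards replicate 1. Of the 82 tested, 46 (56.1%) had their highest scaled count in replicate 1, against 35.8% of all genes tested and 36.6% of the non-members of like depth, and 33 had their lowest in replicate 2. The median deviation of members from their own mean over the libraries was 0.15, -0.09, 0.01 and -0.02 log2 units in replicates 1 to 4, while that of all protein-coding genes was 0.02, -0.02, -0.03 and 0.01. Another scaling moved the median of all protein-coding genes by less than 0.1 in every library. By role, the assembly factors had medians of 0.39 in replicate 1 and -0.31 in replicate 2, and 6 of 8 were highest in replicate 1. This lean was not particular to members. The 7 complex I assembly factors outside the Nduf names had medians of 0.38 and -0.22, and 10 complex III and V assembly genes 0.25 and -0.24. The lean was smaller in 19 complex IV assembly genes (0.14 and -0.05) and 8 complex II genes (0.06 and -0.04). The c ring (3 of 3, median 0.43) and the F1 head (4 of 5) were highest in replicate 1. Of these, Atp5g2 was nearly level between replicates 1 and 2, at 57.5 and 57.2 CPM, and its level depends on the division of reads with Gm10175. The peripheral stalk genes Atp5f1, Atp5h, Atp5j and Atp5o were all highest in replicate 3, with a median deviation of 0.28 there. Against this lean, 11 members were lowest in replicate 1, with the widest ranges in Cox7a2l (2.60-fold), Ndufa3 (1.81-fold) and Uqcrh (1.75-fold). Replicate 1 was also the shallowest library with the most ribosomal RNA, and the part of either in this lean was not tested.

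**Figure D5:**
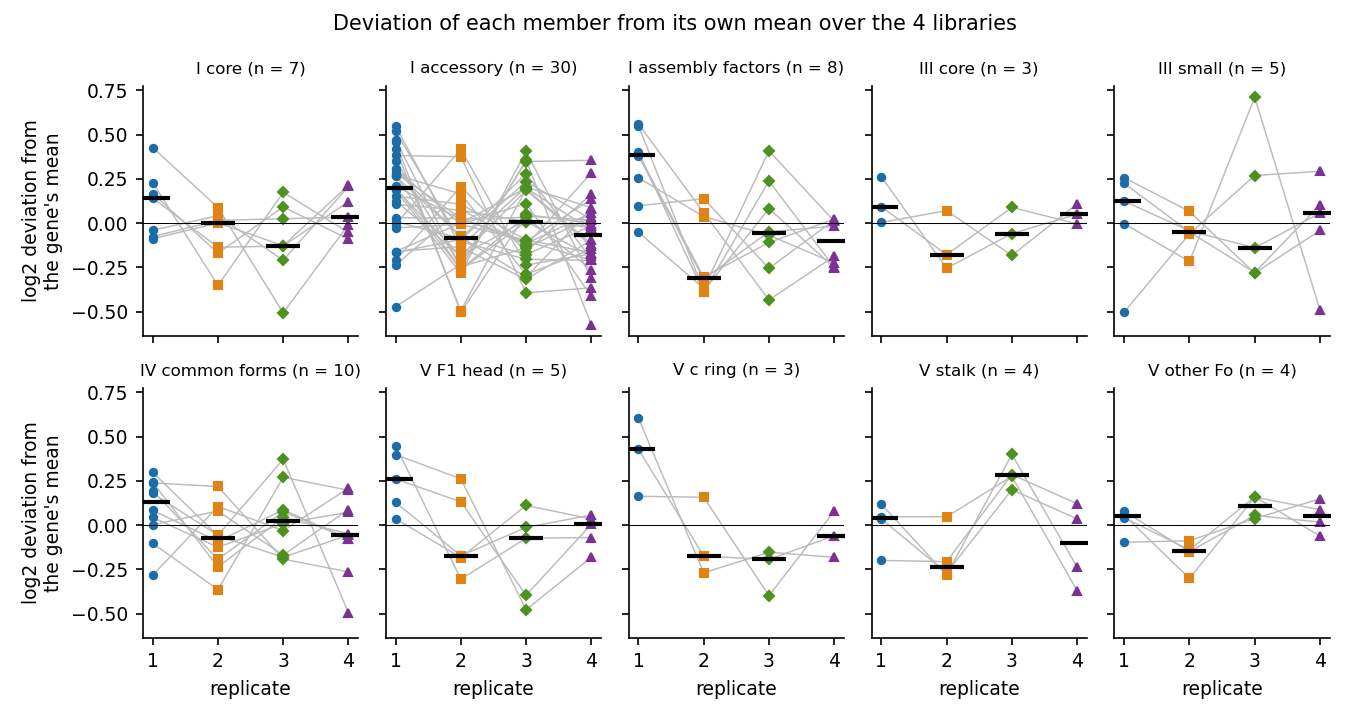
Deviation of each tested member's log2(CPM + 1) from its own mean over 4 libraries, by role; grey lines join a gene, and black bars are medians. Assembly factors (median 0.39), the F1 head and the c ring sit high in replicate 1, and the 4 peripheral stalk genes sit high in replicate 3 (median 0.28). Counts cover coding and noncoding transcripts, and the coding transcripts of Atp5f1 and Atp5j were not highest in replicate 3.

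Base composition moved with the deviations in replicates 2 to 4 and not in replicate 1. Across the 82 members, Spearman's rho between a member's deviation and the GC content of its leading coding transcript was 0.00, 0.38, -0.52 and 0.36 in replicates 1 to 4, and across 11347 protein-coding genes it was -0.04, 0.15, -0.34 and 0.25. These are descriptions across genes of the same libraries. In replicate 3 the median deviation was 0.09 in the 28 members of lowest GC content (39.0% to 49.0%) and -0.13 in the 27 of highest (54.6% to 61.1%). Protein-coding genes divided at the same limits had medians of 0.05 and -0.13 in that library. In replicate 1 the median was 0.17, 0.13 and 0.14 in the members of low, middle and high GC content, so the lean was present in each. The part of GC content in the high stalk genes and Uqcrb of replicate 3 was not tested.

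The text lists that came with the libraries name 6 read files for replicates 1 and 2 and 4 for replicates 3 and 4, so the 2 kinds were compared. With edgeR's quasi-likelihood test none of 12701 genes (0.0%) and none of 82 members had an adjusted p under 0.05. At an unadjusted p under 0.05 there were 290 genes and 3 members. DESeq2 called 35 genes and no member. Without replicate 2 edgeR called 98 genes, again with no member among them.

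The rest of the pathway gives the setting. The mitochondrially encoded subunits, which complete complexes I, III, IV and V, summed to 3.82%, 5.42%, 8.74% and 5.86% of TPM in replicates 1 to 4, and 10 of 13 were called variable, against 33.0% of all genes tested. They were thus lowest in the library where the nuclear members leaned high, and 6 of them share sequence with nuclear pseudogenes. Of the 8 complex II genes, 7 passed counting noise and none was called variable, and the highest, Sdha and Sdhb, were at 116 ± 8.90 and 114 ± 3.76 TPM. Cycs, the electron carrier cytochrome c, was variable at 47.12, 16.40, 33.34 and 22.94 TPM (3.06-fold), and Cyc1 of complex III was at 60.4, 32.9, 37.6 and 34.3 TPM, both highest in replicate 1.

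Assembly and control genes outside the naming rule were mostly low, and their counts of variable genes stand beside 33.0% of all genes tested. None of the 7 other complex I assembly factors was variable (median 7.13 TPM, highest Tmem126b at 17.6 and Foxred1 at 14.9 TPM). Of 19 tested complex IV assembly genes 4 were variable: Cox11, Cox14, Cox18 and Sco2, the last at 7.13, 7.53, 1.90 and 4.45 TPM. The highest of that list were Cox17, a copper chaperone, at 166 ± 12.6 TPM and Coa3 at 62.9 ± 13.6 TPM. Among 10 complex III and V assembly genes Lyrm7 alone was variable, and the highest were Atpif1, which inhibits the ATP synthase when it runs backwards, at 392 ± 53.9 TPM and Uqcc2 at 67.1 ± 21.3 TPM. Among the 14 regulators listed (median 10.7 TPM), Hif1a was highest at 50.7 ± 10.6 TPM, followed by Gabpb1 at 22.2 ± 3.95 TPM. Ppargc1a was at 0.01 TPM or below in every library. Pprc1, a coactivator related to Ppargc1a, was variable at 15.98, 5.17, 6.39 and 5.76 TPM, highest in replicate 1, and Ppargc1b was variable at 1.18, 1.09, 0.50 and 0.64 TPM.

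Counting could mix genes at some loci. The exons of 33 members overlap those of another gene, 29 on the opposite strand and 6 on the same, and whether counting used the strand is not given in the sources used here. Atp5j overlaps Gabpa (18.5 TPM) on the opposite strand, Cox4i1 overlaps Emc8 (26.5 TPM) and Atp5f1 overlaps Wdr77 (11.5 TPM). At other loci the neighbour on the opposite strand was listed above the member. Eef1b2 (392 TPM) overlaps Ndufs1 (42.2 TPM), Impdh2 (46.9 TPM) overlaps Ndufaf3 (10.96 TPM) and Shmt2 (12.4 TPM) overlaps Ndufa4l2 (0.10 TPM). Reads of all these pairs may not be told apart.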

How the data were processed

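Polyadenylated RNA was sequenced in 4 libraries of 1 group. Per the labels and the deposited text lists, the authors used assembly mm10 and GENCODE annotation M21; for the aligner, the quantifier and strandedness nothing is given in the sources used here. The authors deposited, per the file headers, expected counts and TPM for each gene and transcript, with posterior mean TPM and signal bounds of credibility intervals, and a second transcript table of estimated counts and TPM, which was summed to genes here. Number-only, spike-in and phiX entries of the gene tables, 26345 in all (at most 0.118% of counts), were left out. Expected counts were rounded.

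Counts were scaled with TMM sizes (edgeR 4.0.16, limma 3.58.1, R 4.3.3). Differences between libraries were tested against counting noise by chi-square (3 degrees of freedom), adjusted by Benjamini-Hochberg over genes averaging 10 counts or more; the test was checked on simulated data. The contrast by number of read files used edgeR's quasi-likelihood test, with DESeq2 1.42.0 as the alternative. Deviations used log2(CPM + 1). Levels are TPM. Copies were aligned with Biopython 1.88, for pseudogenes holding at least 50% of a member's 31-base words or listed at 10 TPM or more. Python was 3.11.15, with scipy 1.17.1.

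The members and gene lists were chosen with earlier results of these data known. Named were the 3 highest and 2 lowest genes of each complex, all paralog sets, every variable member, members whose quantifications differ at least 2-fold or whose TPM is mostly noncoding, and of the other lists the 2 highest and any variable gene; genes named outside this rule were chosen after their values were seen. Depth, 26917324 to 39438414 counts a library, limits low genes; intervals and floors cover counting error only. Alternatives covered scaling, filters, pseudocount, the second quantification, posterior mean TPM and leaving out each replicate.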

Additional observations from a re-analysis of the deposited data

Results flagged for a closer look

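In 5 of 82 members 1 library lay far from the other 3, a spacing that chance gives in about 1 of 20 groups of 4; it was seen in 6.1% of members and in 8.42% of all 12701 genes examined. Replicate 1 was the high library in 4 of them. Atp5b was at 816 TPM there and between 389 and 442 TPM in the others, while its scaled counts spanned 1.69-fold. Atp5g1 was at 139 TPM against 61.8 to 68.4 TPM. Ndufc1, an accessory subunit of complex I, was at 183 TPM against 97.0 to 106 TPM, and Atp5j2, a small Fo subunit, at 154.5 TPM against 130 to 132 TPM. Uqcrfs1, the Rieske protein, was low in replicate 3, at 57.55 TPM against 70.1 to 72.2 TPM in the others.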

How the results depend on the processing

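Over 20 results, 84 alternative values kept direction, gave a count near the main one or stayed within the spread between replicates. Another 14 moved further, and the others concern the variable members and the sign in replicate 3. A near count need not hold the same genes: without replicate 2, 3 or 4, only 4 of the 6 main variable calls remained. The count of variable members was 13 with the second quantification, where all 6 of the main calls were shared and 36.1% of all genes tested were variable, and ranged from 2 to 4 when 1 replicate was left out, 2 without replicate 1, where 16.1% of all genes were variable. The count past counting noise ranged from 72 to 76 on leaving out 1 replicate, and no alternative called a member in the contrast by read files. The second quantification gave lower medians throughout: 55.9 TPM for complex I subunits, 6.77 for assembly factors, 103 for complex III, 215 for complex IV common forms and 166 for complex V subunits, in the same order as the main values. Leaving out 1 replicate moved the complex V median between 210 and 236 TPM. The median deviation of members in replicate 3 changed sign, to -0.02 log2 units with the second quantification, from a main value near 0; the cause was not tested. Posterior mean TPM and the second quantification moved the shares of the paralog sets by under 1 percentage point except in the c ring, where the second gave Atp5g3 72.6%, Atp5g1 24.8% and Atp5g2 2.63%. No paired analysis was possible because there was 1 group. Counts of 20 to 37 a library limit Cox7a1.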

Other observations

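The mitochondrially encoded partners of these genes have nuclear copies that the tables list at high levels. Of the 13 subunit genes of mitochondrial DNA, 6 share at least 10% of their 31-base words with an unprocessed pseudogene on chromosome 1. For mt-Co3, the third core subunit of complex IV, the first quantification listed 227, 605, 168 and 0.31 TPM in replicates 1 to 4, while the pseudogene Gm28437 (chr1:24613189-24613971), identical over all 783 aligned bases, stood at 6032, 6385, 12430 and 8595 TPM. The second quantification gave mt-Co3 2669, 3766, 2263 and 1324 TPM. For mt-Atp6, the a subunit of the ATP synthase, the values were 92.0, 353, 149 and 14.1 TPM, against 5698, 7211, 13220 and 7681 TPM for its identical copy Gm10925, and the second quantification listed mt-Atp6 at 2729, 4046, 10510 and 4678 TPM. For mt-Co2 the copy Gm28661 was above the gene in both quantifications. Summed with their copies, mt-Co3, mt-Atp6 and mt-Co2 were each highest in replicate 3, at 12600, 13370 and 20120 TPM, as were mt-Nd3 and mt-Co1 with theirs, whereas mt-Nd4l with Gm10222 was highest in replicate 2, at 3101, 4917, 4279 and 3011 TPM. These genes were examined after their values were seen, and how the reads were divided between each gene and its copy was not tested.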
